A study of Mus musculus with 24 samples.

Results

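Fatty acid oxidation genes and genes that respond to the PPAR receptors were followed in 4T1 cells given lactic acid while glucose was low. They were taken as a list of 43 gene symbols, drawn up with earlier results of these data known. Of these, 41 could be measured, out of 19938 genes with a value on the arrays. Acsl1 was not analysed here, because no probe set of the annotation carries its name. Acsl3 is represented only by a probe set shared with Utp14b and is not counted.

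4T1 is an established mouse mammary carcinoma line from a BALB/c tumour that metastasises when grafted. All cells were kept in medium with 3 mM glucose; control cells had nothing added, and treated cells received 20 mM lactic acid and were harvested on day 1, 3, 4, 5, 7, 9 or 11. The study asked for the time course of genes behind the longer life that lactic acid gives to cells short of glucose. Each of the 8 groups had 3 Affymetrix arrays, 24 in all, titled as biological replicates of a single unmodified line. The labels do not say how long control cells were cultured, so lactic acid and time in culture cannot be told apart. Nor do they say whether replicates came from separate cultures, so p-values speak of the spread among these arrays alone, and the number of arrays limits the precision. All 7 comparisons with control share the same 3 control arrays. In arrays of whole cultures, fewer cells of a kind and less RNA per cell cannot be told apart.

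Long-chain fatty acids are activated to acyl-CoA by acyl-CoA synthetases and cross the mitochondrial membranes as carnitine esters, made by CPT1, carried by SLC25A20 and turned back to acyl-CoA by CPT2. Inside, chain-length specific acyl-CoA dehydrogenases, hydratases, hydroxyacyl-CoA dehydrogenases and thiolases shorten the chain, and electrons pass through the electron transfer flavoprotein to ubiquinone. Peroxisomes shorten very long and branched chains, thioesterases release free acids from acyl-CoA, and isomerases and reductases prepare unsaturated chains. The PPARs are nuclear receptors that bind fatty acids, pair with RXR on repeats of AGGTCA and activate many of these genes, with PGC-1 proteins as coactivators. CPT1A is a main control point of the pathway because malonyl-CoA, the product of acetyl-CoA carboxylase, inhibits it.

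Of 5 epithelial markers, mean log2 signal over 24 arrays was 10.78 for Krt8 and 11.23 for Krt18, but 5.59 for Krt19, 5.66 for Cdh1 and 4.56 for Epcam, close to the array medians. On day 11 Krt8 and Krt19 fell by 0.58 and 0.67 (limma, adjusted p = 0.00133 and 0.00285), Epcam and Cdh1 rose by 0.63 and 0.45 (adjusted p = 0.00112 and 0.00338), and Krt18 did not pass (0.04, adjusted p = 0.9). The part of these shifts in the results was not tested. Log2 signals were averaged over the markers of adipocytes (7 genes), leukocytes (6), endothelium (4) and hepatocytes (3). Each set's average lay between 3.15 and 4.01 on every array. The 7 adipocyte markers held no gene past the threshold on day 1, 3, 7 or 11 (limma, 0, 0, 0 and 1 at an unadjusted p below 0.05). Calls of single markers on days 4, 5 and 9 are not given here. The average of the 4 fibroblast markers lay between 3.60 and 3.74 in control arrays, between 3.58 and 4.59 on day 1 and between 4.09 and 4.69 on all days from 3. Of these 4, Pdgfra alone passed on days 3, 7 and 11 (up by 2.42 on the log2 scale on day 3, SE 0.15, adjusted p = 4.05e-11, and by 1.79 on day 11, SE 0.15, adjusted p = 1.43e-09, limma). Dcn, Lum and Dpt, which define fibroblasts, had mean log2 signals of 2.86, 2.12 and 2.91, against 8.95 for Pdgfra. The part of Pdgfra-positive cells in the results was not tested. Array medians were between 4.40 and 4.75. Day 1 replicate 1 stood apart, its SD over all genes being 2.17 where the other 23 arrays had 2.39 to 2.52, with a median correlation of 0.963 with its own group, against 0.978 to 0.996 elsewhere. Day 1 results are therefore given with and without it where it mattered.

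More members were higher than control than lower on each of the 7 days, and the share of members that rose exceeded the share of all genes that rose. A gene was called higher or lower when its limma p-value, adjusted by the Benjamini-Hochberg method over 19938 genes, was below 0.05. On day 1, 8 of 41 members rose (19.5%) against 2.30% of all genes, and 3 fell (7.3%) against 2.52%. On day 3 the counts were 17 higher (41.5%, against 12.4% of all genes) and 7 lower (17.1%, against 13.9%). On day 4, 17 members rose where 14.0% of all genes did, and 8 fell where 12.9% did. Day 5 gave 17 higher (background 17.2%) and 4 lower (background 10.3%), and day 7 gave 17 higher (background 16%) and 5 lower (background 9.44%). On day 9, 15 were higher (36.6%, against 13.1%) and 7 lower (17.1%, against 14.0%). On day 11, 17 were higher (41.5%, against 14.0%) and 6 lower (14.6%, against 11.8%). Members were brighter than most genes, and 37 of the 41 had a mean signal at or above the lowest array median, as had 10227 of all genes. Among these brighter genes the backgrounds were higher: on day 1, 3.69% rose and 4.59% fell, on day 3, 20.3% and 25.8%, and on day 11, 25.6% and 20.6%. The 37 brighter members held all the calls, with 45.9% higher and 18.9% lower on day 3 and 45.9% higher and 16.2% lower on day 11. The median change of the 41 members lay between 0.13 on day 3 and 0.23 on day 5 on the log2 scale, while the median of all genes lay between -0.04 and 0.07.

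**Figure D1:**
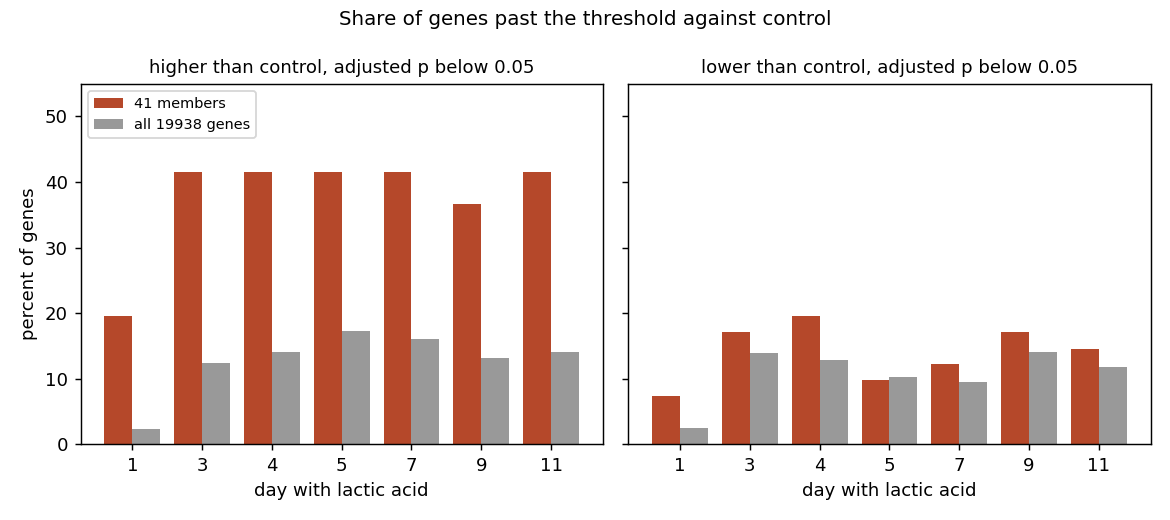
Percent of the 41 members (red bars) and of all 19938 genes (grey bars) that were higher (left) or lower (right) than control at an adjusted p below 0.05, by day with lactic acid. The red bars for higher calls reach 41.5% on 5 of the 7 days, above grey bars of 12.4% to 17.2% on those days.

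The day 1 count depended on the fit. With only the 6 arrays of control and day 1, limma called 0 members, with 15 at an unadjusted p below 0.05, and without day 1 replicate 1 it called 11 higher and 2 lower. The balance of higher and lower calls also moved with the scaling of the arrays. Cyclic loess gave 12 higher and 1 lower on day 1, 14 higher and 9 lower on day 7, and 17 higher and 10 lower on day 11. Centring each array on its median gave 8 higher and 1 lower on day 1 and 13 and 10 on day 3.

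The 41 members fell into a few time courses, each given here beside the share of all 19938 genes that showed it. Such shares were not computed among the brighter genes. Higher on all 7 days were 6 members, Cpt1a, Slc25a20, Acadvl, Acaa2, Ech1 and Plin2 (0.562% of all genes). Another 7 passed as higher on every day from 3 to 11 but not on day 1: Acadm, Acad10, Etfdh, Acox3, Pex11a, Acot1 and Acot2 (5.82% of all genes). Lower on every day from 3 to 11 but not on day 1 were 3 members, Acsl5, Acad9 and Acot9 (4.75% of all genes). A further 7 were higher on some days (18.7% of all genes) and 6 lower on some days (15.3%). Decr2 and Angptl4 passed in both directions (2.27%). In the fit of all arrays 10 members passed on no day (52.1% of all genes): Acsl4, Cpt2, Crat, Hadhb, Etfa, Ehhadh, Hsd17b4, Ppara, Pparg and Ppargc1a. Of these 10, Cpt2 was lower on a day under all 8 other settings of the whole fit, Crat under 3 and Hadhb under 2, while Etfa, Ehhadh and Hsd17b4 were each higher on a day under 1. Of the 7 late risers, 4 kept this pattern when arrays were centred on their medians; Acad10, Acox3 and Pex11a then missed the threshold on day 3 (adjusted p = 0.0725, 0.117 and 0.164). Acaa2 left the group of 6 on day 7 under centring (adjusted p = 0.065) and on days 7 and 11 under cyclic loess (0.266 and 0.0629). Acsl5, Acad9 and Acot9 kept their pattern under both scalings, the filter on dim genes, the mean of all probe sets, the other variance model, the replicate block and both omissions of arrays from every fit.

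**Figure D2:**
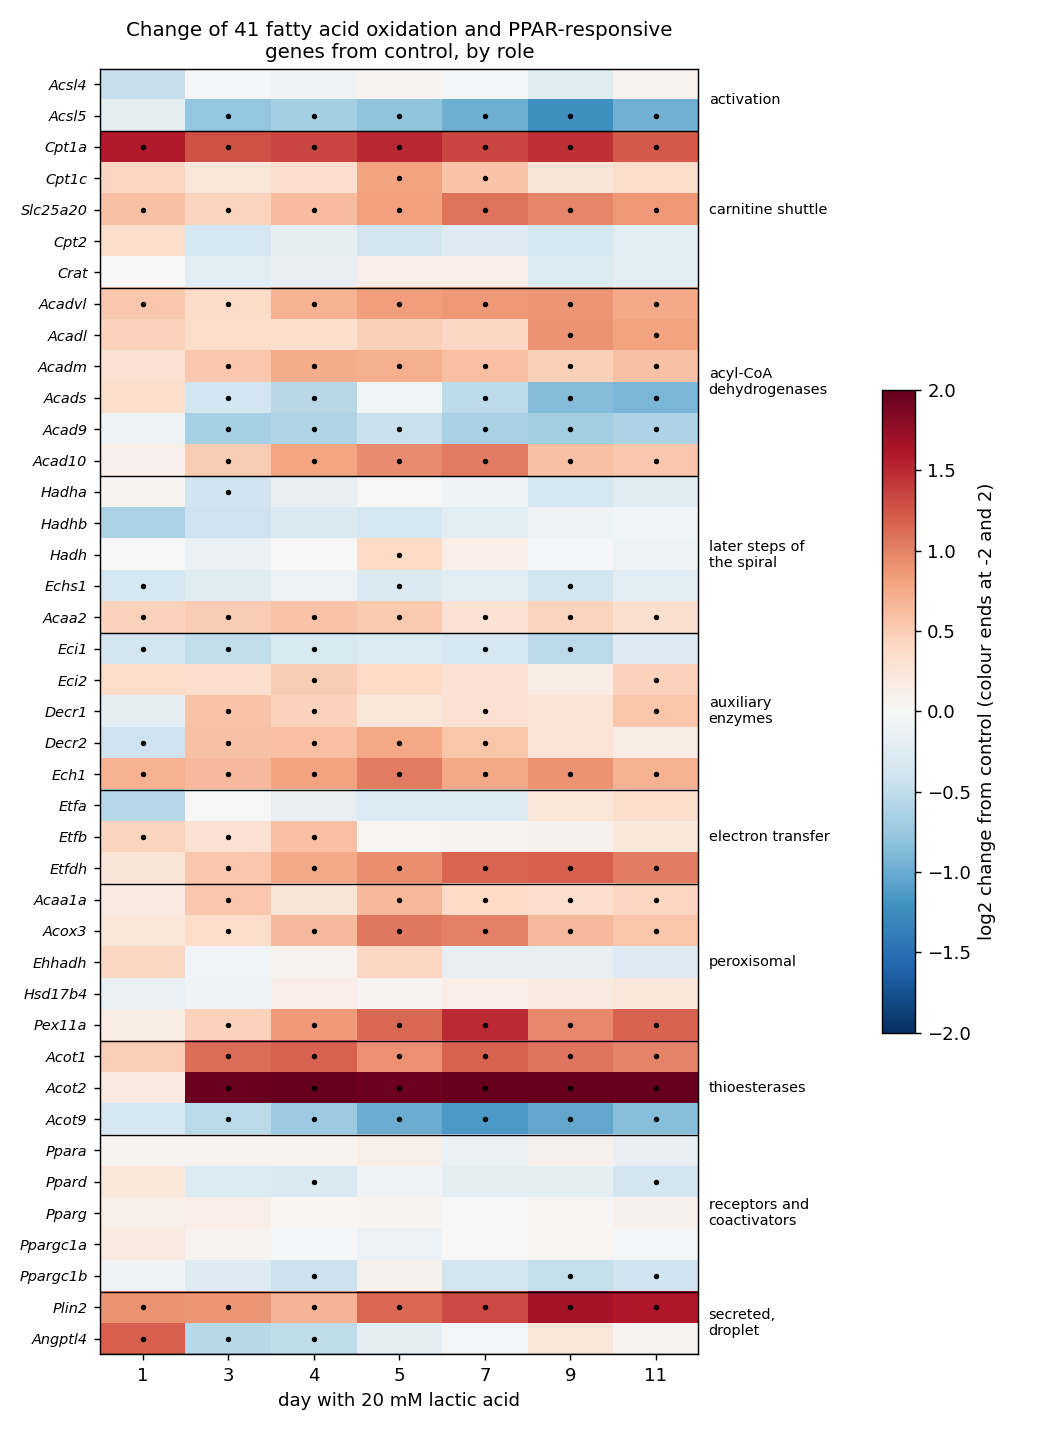
Log2 change from control of the 41 members (rows, grouped by role) on each day with 20 mM lactic acid (columns); a dot marks an adjusted p below 0.05, and the colour ends at -2 and 2, which Acot2 passes on days 4, 7, 9 and 11. Cpt1a, Slc25a20, Acadvl, Acaa2, Ech1 and Plin2 carry a dot on all 7 days, and Acsl5, Acad9 and Acot9 are blue with a dot on all days from 3.

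Activation of fatty acids was represented by 2 members. Acsl5, a long-chain acyl-CoA synthetase, had log2 signals of 9.85, 9.97 and 9.97 in the 3 control arrays and of 9.16, 10.11 and 9.95 (day 1). From day 3 to day 11 all 18 arrays lay between 8.53 and 9.26, below every control array. It fell by 0.77 on day 3 (SE 0.16, adjusted p = 0.00076, limma) and by 1.23 on day 9 (2.34-fold, SE 0.16, adjusted p = 2.41e-06). Acsl4, which prefers polyunsaturated chains, passed on no day, with changes between -0.46 on day 1 and 0.07 on day 11. The probe set shared by Acsl3 and Utp14b had a mean of 7.55 (SD 0.17, n = 3) in control and 7.75 (SD 0.09, n = 3) on day 11.

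The carnitine shuttle held the largest day 1 rise among the members. Cpt1a, the outer-membrane acyltransferase that commits long chains to oxidation, had log2 signals of 6.70, 6.95 and 6.94 in control, 8.10, 8.66 and 8.60 (day 1), 8.13, 8.03 and 8.25 (day 3), and 8.32, 8.21 and 8.08 (day 4). Later arrays read 8.22, 8.23 and 8.66 (day 5), 8.13, 8.21 and 8.27 (day 7), 8.56, 8.15 and 8.28 (day 9), and 8.04, 8.05 and 8.16 (day 11). All 21 treated arrays lay above all control arrays by more than 1 log2 unit. The change was 1.59 on day 1 (3.02-fold, SE 0.15, adjusted p = 1.04e-06) and 1.22 on day 11 (2.33-fold, SE 0.15, adjusted p = 7.49e-07). The 7 treated days did not differ beyond the replicate spread (F test, adjusted p = 0.271). With only the 6 arrays of control and day 1, its adjusted p on day 1 was 0.0865.

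Slc25a20, the carrier that takes acylcarnitines across the inner membrane, had log2 signals of 7.25, 7.38 and 7.38 in control, 8.03, 7.96 and 7.80 (day 1), and 7.78, 7.87 and 7.71 (day 3). On day 7 they were 8.48, 8.45 and 8.37, and on day 11 they were 8.18, 8.23 and 8.20. All treated arrays lay above control on every day. The rise was 0.59 on day 1 (SE 0.12, adjusted p = 0.004), 1.09 on day 7 (2.13-fold, adjusted p = 1.09e-07) and 0.86 on day 11 (adjusted p = 3.2e-06), and the treated days differed (F test, adjusted p = 7.18e-04). With only the 6 arrays of control and day 1, the day 1 adjusted p was 0.255.

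The other shuttle genes moved less. Cpt1c, a relative of Cpt1a best known from neurons, rose on day 5 by 0.80 (SE 0.14, adjusted p = 1.02e-04) and on day 7 by 0.56 (adjusted p = 0.00331). Cpt2, which rebuilds acyl-CoA on the inner side, had changes of 0.35 on day 1 and between -0.37 and -0.20 later, with no adjusted p below 0.0502. It passed as lower on day 5 under each of the 8 other settings of the whole fit (adjusted p from 0.0037 under cyclic loess to 0.0496 with the mean of all probe sets). Cpt2 did fall between day 1 and day 3, by 0.70 (SE 0.14, adjusted p = 4e-04). Crat, which handles short-chain carnitine esters, had changes between -0.27 and 0.14 and passed on no day.

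A start region of Cpt1a is shown because Cpt1a rose on every day and the window holds the AGGTCA core to which PPAR and RXR bind. The letters are the 250 bases before a transcription start in RefSeq (build GRCm38.p6). Capitals mark the match to the core on the minus strand, read here as its complement. The annotated gene begins at 3322326, so the window and its match lie inside the gene, before a later start.

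Cpt1a chr19:3323051-3323300, plus strand: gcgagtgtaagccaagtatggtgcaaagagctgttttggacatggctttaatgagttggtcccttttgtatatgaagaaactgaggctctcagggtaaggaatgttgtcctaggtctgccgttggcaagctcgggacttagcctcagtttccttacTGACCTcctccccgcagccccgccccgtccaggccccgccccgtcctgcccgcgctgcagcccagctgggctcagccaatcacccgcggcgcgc

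Of the 6 acyl-CoA dehydrogenases, 4 rose on some or all days and 2, Acads and Acad9, fell. Acadvl, for very long chains, had log2 signals of 7.65, 7.59 and 7.71 in control, 8.19, 8.18 and 8.19 (day 1), 8.06, 7.96 and 8.08 (day 3), and 8.45, 8.42 and 8.37 (day 11). Every treated array exceeded every control array. It rose by 0.54 on day 1 (SE 0.10, adjusted p = 0.00211), 0.38 on day 3 (adjusted p = 0.00455) and 0.88 on day 9 (1.84-fold, adjusted p = 2.04e-07).

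Acadm, for medium chains, had log2 signals of 8.70, 8.78 and 8.76 in control and 9.36, 9.33 and 9.30 (day 11). It rose on every day from 3, by 0.48 on day 9 (adjusted p = 0.00243) to 0.74 on day 4 (SE 0.12, adjusted p = 2.39e-05), with all arrays above control. Acadl, for long chains, lay at 9.10, 9.21 and 9.24 in control and between 9.95 and 10.01 on day 11, a rise of 0.80 (SE 0.19, adjusted p = 0.00246), and it also rose on day 9 (0.90, adjusted p = 8.46e-04). Its day 1 arrays were 8.90, 10.13 and 9.93, so that replicate 1 lay below control and the others above. With day 1 replicate 1 omitted from every fit, Acadl passed on day 1 too (0.84, adjusted p = 1.06e-04), and on day 3 (0.36, adjusted p = 0.00708), day 4 (0.36, adjusted p = 0.00805), day 5 (0.48, adjusted p = 6.26e-04) and day 7 (0.41, adjusted p = 0.00263), and so on all 7 days.

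Acads, for short chains, moved the other way at late times. Its log2 signals were 8.16, 7.97 and 8.04 in control, 8.50, 8.31 and 8.43 (day 1), 7.60, 7.71 and 7.74 (day 3), 7.62, 7.50 and 7.41 (day 4), and 7.88, 8.02 and 8.11 (day 5). They were 7.59, 7.56 and 7.46 (day 7), 7.56, 7.12 and 6.90 (day 9), and 7.18, 7.21 and 7.05 (day 11). Day 5 overlapped control, and the other days from 3 lay below it. Acads fell by 0.55 on day 4 (SE 0.13, adjusted p = 0.00217) and by 0.91 on day 11 (1.88-fold, adjusted p = 7.04e-06), and it rose between days 4 and 5 by 0.50 (adjusted p = 0.0136), a step lost without day 4 replicate 3 or day 5 replicate 3 (adjusted p from 0.0681 to 0.0686). Its day 3 fall of 0.38 (adjusted p = 0.0342) was lost without any of control replicates 1 and 3 or day 3 replicates 1, 2 and 3 (adjusted p from 0.0537 to 0.129).

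Acad9, an acyl-CoA dehydrogenase needed to assemble respiratory complex I, lay at 8.52, 8.57 and 8.61 in control and between 7.73 and 8.13 on all 18 arrays from day 3. It fell by 0.66 on day 3 (SE 0.12, adjusted p = 1.76e-04) and by 0.62 on day 11 (adjusted p = 3.08e-04). Acad10 lay at 4.99, 4.98 and 5.05 in control and at 5.96, 6.14 and 6.04 (day 7), a rise of 1.04 (2.06-fold, SE 0.16, adjusted p = 2.43e-05). Its rises on day 3 (0.51), day 9 (0.59) and day 11 (0.54) were each lost without some array: control replicate 1 or 2 or day 3 replicate 3 for day 3 (adjusted p from 0.0572 to 0.182), day 9 replicate 1 for day 9 (0.055) and day 11 replicate 2 or 3 for day 11 (0.0598 and 0.074).

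**Figure D3:**
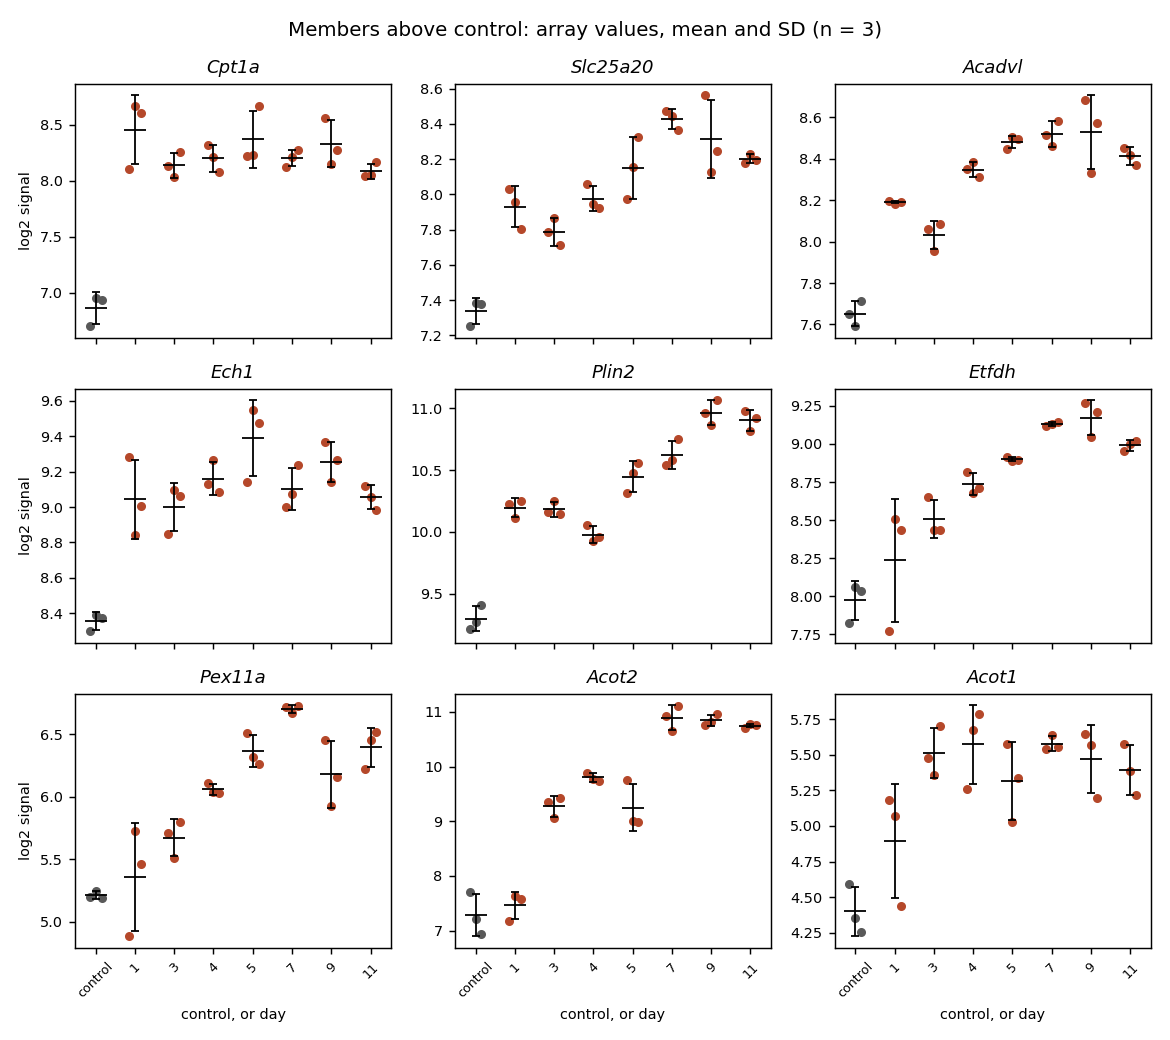
Log2 signal of 9 members above control, in each array (points; grey for control, red for treated), with the mean (long bar) and SD (short bars) of 3 arrays, for control and each day. Cpt1a, Slc25a20, Acadvl, Ech1 and Plin2 are above control from day 1, while the 3 day 1 points of Acot2 lie within the control range and the day 3 points start at 9.05.

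Among the later steps of the mitochondrial spiral, Acaa2, the thiolase that cleaves the shortened chain, rose on all 7 days. Its log2 signals were 8.20, 8.05 and 8.12 in control, 8.44, 8.69 and 8.62 (day 1), and 8.42, 8.52 and 8.37 (day 11), with no treated array in the control range. The rises ran from 0.29 on day 7 (adjusted p = 0.0393) to 0.57 on day 4 (SE 0.10, adjusted p = 1.37e-04). The day 1 call was lost without control replicate 2 (adjusted p = 0.0656). The day 7 call was lost without control replicate 2 or 3 or day 7 replicate 2 or 3 (0.0708 to 0.177), and the day 11 call without control replicate 2 or 3 or day 11 replicate 1 or 2 (0.0557 to 0.111).

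Hadha and Hadhb encode the trifunctional protein that carries out the last steps for long chains. Hadha fell on day 3 by 0.39 (SE 0.14, adjusted p = 0.044), a call lost in each of the 6 fits that left out a control or a day 3 array (adjusted p from 0.0543 to 0.137). Hadhb had changes between -0.63 and -0.05 and passed on no day. Its day 1 arrays were 7.29, 8.97 and 8.79, and with day 1 replicate 1 omitted from every fit it was lower on day 3 (-0.42, adjusted p = 0.00182), day 4 and day 5. The second Hadhb probe set had a mean of 8.89 (SD 0.13, n = 3) in control and 8.50 (SD 0.02, n = 3) on day 3.

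Hadh, the short-chain hydroxyacyl-CoA dehydrogenase, rose on day 5 (0.40, adjusted p = 0.0164), which was lost without control replicate 1 or day 5 replicate 3 (adjusted p from 0.0729 to 0.0873). Echs1, the short-chain hydratase, fell on day 9 by 0.36 (SE 0.09, adjusted p = 0.00464). Its falls on day 1 (0.34) and day 5 (0.29) were lost without control replicate 1 or 2, and also without control replicate 3 for day 1 (adjusted p from 0.0853 to 0.124) and without day 5 replicate 3 for day 5 (0.0505 to 0.0747).

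The enzymes that prepare unsaturated chains did not all move one way. Ech1, the dienoyl-CoA isomerase, had log2 signals of 8.30, 8.39 and 8.37 in control, 9.28, 8.84 and 9.00 (day 1), 9.14, 9.55 and 9.48 (day 5), and 9.12, 9.06 and 8.98 (day 11). All treated arrays were above control. It rose by 0.69 on day 1 (SE 0.13, adjusted p = 0.00228) and by 1.03 on day 5 (2.05-fold, adjusted p = 1.01e-06). With only the 6 arrays of control and day 1, the day 1 adjusted p was 0.255.

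Decr2, the peroxisomal dienoyl-CoA reductase, changed sign. Log2 signals were 8.29, 8.24 and 8.31 in control, 8.08, 7.69 and 7.82 (day 1), 8.86, 8.93 and 8.83 (day 3), 8.89, 8.77 and 8.99 (day 4), and 8.95, 9.03 and 9.20 (day 5). They then read 8.83, 8.81 and 8.86 (day 7), 8.76, 8.34 and 8.57 (day 9), and 8.43, 8.53 and 8.33 (day 11). Day 1 lay below control and all later arrays above it. The change was -0.42 on day 1 (SE 0.12, adjusted p = 0.0449), 0.59 on day 3 (adjusted p = 5.16e-04) and 0.78 on day 5 (adjusted p = 2.14e-05), and it no longer passed on days 9 and 11. The day 1 call was lost without any control array or without day 1 replicate 2 or 3 (adjusted p from 0.0739 to 0.126), and under cyclic loess (0.157).

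Decr1, the mitochondrial reductase, rose on day 3 (0.58, SE 0.11, adjusted p = 2.84e-04), day 4 (0.46, adjusted p = 0.00242) and day 11 (0.55, adjusted p = 4.54e-04). A day 7 rise of 0.31 (adjusted p = 0.0436) was lost in all 6 fits that left out a control or day 7 array (0.0559 to 0.172). Eci1, an enoyl-CoA isomerase, lay at 8.35, 8.49 and 8.56 in control and fell on day 3 by 0.49 (SE 0.11, adjusted p = 8.81e-04) and on day 9 by 0.54 (adjusted p = 2.94e-04). Its falls on days 1, 4 and 7 (0.36, 0.32 and 0.34) were lost without any control array, or day 1 replicate 1, for day 1 (adjusted p from 0.0612 to 0.166), without control replicate 2 or 3 or any day 4 array for day 4 (0.0552 to 0.102), and without control replicate 2 or 3 or day 7 replicate 1 or 2 for day 7 (0.0564 to 0.0907).

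Eci2, the related isomerase also found in peroxisomes, rose on day 4 (0.51, SE 0.17, adjusted p = 0.025) and day 11 (0.46, adjusted p = 0.0461). These calls were lost without control replicate 1 or 2 or day 4 replicate 1 or 2 (0.0613 to 0.106), and without control replicate 1 or 2 or any day 11 array (0.0714 to 0.168). Its day 1 arrays were 7.12, 8.03 and 7.93, against 7.29, 7.19 and 7.48 in control, and without day 1 replicate 1 the day 1 change was 0.66 (adjusted p = 0.0027).

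In electron transfer to ubiquinone, Etfdh rose on every day from 3, Etfb on days 1, 3 and 4, and Etfa passed on no day. Etfdh, the membrane oxidoreductase that receives electrons from the flavoprotein, had log2 signals of 7.82, 8.06 and 8.03 in control, 7.77, 8.51 and 8.43 (day 1), 8.65, 8.43 and 8.44 (day 3), and 8.82, 8.68 and 8.71 (day 4). They were 8.91, 8.89 and 8.90 (day 5), 9.12, 9.13 and 9.15 (day 7), 9.27, 9.04 and 9.21 (day 9), and 8.95, 9.00 and 9.02 (day 11). Only day 1 overlapped control, through replicate 1. The change was 0.53 on day 3 (SE 0.14, adjusted p = 0.00537), 1.20 on day 9 (2.3-fold, adjusted p = 3.69e-07) and 1.02 on day 11 (adjusted p = 4.04e-06). Without day 1 replicate 1, Etfdh also passed on day 1 (0.50, adjusted p = 0.00527).

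Of the flavoprotein subunits, Etfb rose on day 4 (0.60, SE 0.11, adjusted p = 1.04e-04) and fell back between day 4 and day 5 by 0.55 (adjusted p = 0.00155). Its rises on day 1 (0.45) and day 3 (0.31) were lost without control replicate 2 for day 1 (adjusted p = 0.0813) and without control replicate 2 or 3 or day 3 replicate 1 or 3 for day 3 (0.0768 to 0.136). Etfa passed on no day, with changes of -0.56 on day 1 and 0.36 on day 11.

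Of the 5 peroxisomal members, Pex11a and Acox3 rose on every day from 3, Acaa1a on all of these but day 4, and Ehhadh and Hsd17b4 passed on no day. On day 3 and on day 11, 3 of the 5 rose (60.0%, against 12.4% and 14.0% of all genes and 20.3% and 25.6% of the brighter genes). Pex11a, which drives peroxisome division and is a known PPAR-alpha target, had log2 signals of 5.20, 5.25 and 5.19 in control, 4.89, 5.72 and 5.46 (day 1), 5.71, 5.51 and 5.80 (day 3), and 6.11, 6.04 and 6.03 (day 4). They were 6.51, 6.32 and 6.27 (day 5), 6.72, 6.67 and 6.72 (day 7), 6.46, 5.93 and 6.16 (day 9), and 6.22, 6.45 and 6.52 (day 11). Day 1 overlapped control, and every later array lay above it. The change was 0.85 on day 4 (SE 0.16, adjusted p = 2.18e-04), 1.49 on day 7 (2.81-fold, adjusted p = 1.19e-07) and 1.18 on day 11 (adjusted p = 3.36e-06). The day 3 call (0.46, adjusted p = 0.0358) was lost without any control array or day 3 replicate 1 or 3 (0.0713 to 0.132).

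Acox3, an acyl-CoA oxidase for branched chains, lay at 5.62, 5.67 and 5.70 in control, 6.64, 6.85 and 6.66 (day 5), and 6.68, 6.66 and 6.66 (day 7). Treated arrays lay above control on every day, and the rise was 1.05 on day 5 (2.07-fold, SE 0.14, adjusted p = 1.87e-06), 1.00 on day 7 and 0.56 on day 11 (adjusted p = 0.00248). The day 3 call (0.37, adjusted p = 0.047) was lost without any control array or day 3 replicate 1 or 2 (0.0832 to 0.194). Acaa1a, the peroxisomal thiolase, rose on day 3 (0.53, SE 0.11, adjusted p = 4.88e-04), day 5 (0.66, adjusted p = 4.18e-05), day 7, day 9 and day 11 (0.42, adjusted p = 0.00411), and its day 9 call was lost without control replicate 2 or day 9 replicate 3 (0.0601 to 0.0826). Ehhadh, a bifunctional enzyme like Hsd17b4, had a control mean of 3.43 (SD 0.04, n = 3), below the array medians, and the table gives no detection calls.

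The thioesterases held the largest change from control among the members. Acot2, the mitochondrial long-chain thioesterase, had log2 signals of 7.70, 7.21 and 6.95 in control, 7.18, 7.63 and 7.58 (day 1), 9.34, 9.05 and 9.42 (day 3), and 9.89, 9.78 and 9.74 (day 4). They were 9.75, 9.01 and 8.99 (day 5), 10.93, 10.65 and 11.10 (day 7), 10.75, 10.82 and 10.96 (day 9), and 10.71, 10.78 and 10.75 (day 11). Day 1 lay within the control range, and all 18 later arrays lay above it by more than 1 log2 unit. The change was 0.17 on day 1, 1.98 on day 3 (3.95-fold, SE 0.19, adjusted p = 3.46e-08), 3.61 on day 7 (12.2-fold, adjusted p = 1.17e-12) and 3.46 on day 11 (11.0-fold, adjusted p = 1.8e-12). The treated days differed (F test, adjusted p = 6.33e-12).

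Acot1, the cytosolic member of the same gene cluster, had log2 signals of 4.59, 4.35 and 4.26 in control, 5.18, 5.07 and 4.44 (day 1), 5.48, 5.36 and 5.70 (day 3), and 5.58, 5.38 and 5.22 (day 11). From day 3 every array exceeded control. It rose by 1.11 on day 3 (2.16-fold, SE 0.19, adjusted p = 5.46e-05), 1.18 on day 7 (2.26-fold, adjusted p = 2.4e-05) and 0.99 on day 11 (adjusted p = 1.89e-04). Acot1 and Acot2 are close paralogues, and how far Acot2 transcripts bind the Acot1 probes was not tested.

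The start regions of Acot2 and Acot1 are shown because these neighbours on chromosome 12 both rose from day 3. Neither window holds AGGTCA, so no letters are in capitals. In the ungapped alignment with the most identities, 91 of 293 compared bases (31.1%) of their full windows were identical.

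Acot2 chr12:83987611-83987860, plus strand: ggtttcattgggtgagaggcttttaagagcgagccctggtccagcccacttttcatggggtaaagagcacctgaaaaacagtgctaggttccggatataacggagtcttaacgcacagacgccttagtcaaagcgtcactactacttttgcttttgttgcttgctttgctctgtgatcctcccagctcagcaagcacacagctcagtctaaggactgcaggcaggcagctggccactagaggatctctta
Acot1 chr12:84009252-84009501, plus strand: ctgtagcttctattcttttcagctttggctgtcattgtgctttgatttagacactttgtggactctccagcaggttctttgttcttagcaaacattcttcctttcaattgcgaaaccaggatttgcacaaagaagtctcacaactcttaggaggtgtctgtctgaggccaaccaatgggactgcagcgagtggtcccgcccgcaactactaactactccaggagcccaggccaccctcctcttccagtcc

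Acot9, a mitochondrial thioesterase of another subfamily, went down while Acot1 and Acot2 went up. Its log2 signals were 9.41, 9.65 and 9.55 in control, 8.97, 9.31 and 9.27 (day 1), 8.95, 9.01 and 9.06 (day 3), 8.44, 8.54 and 8.17 (day 7), and 8.86, 8.59 and 8.59 (day 11). No treated array reached the control range. The fall was 0.53 on day 3 (SE 0.12, adjusted p = 0.00216) and 1.15 on day 7 (2.22-fold, adjusted p = 1.42e-07), and day 1 did not pass with all arrays.

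**Figure D4:**
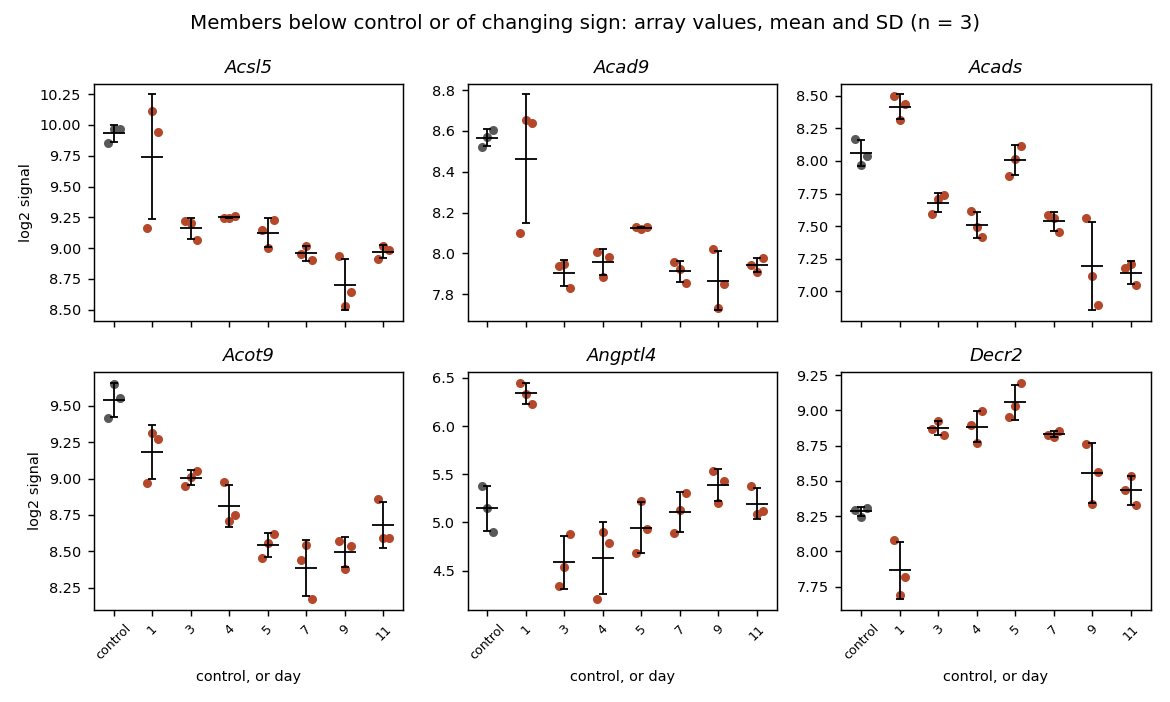
Log2 signal of 6 members below control or of changing sign, in each array (points), with the mean and SD of 3 arrays, for control (grey) and each day (red). Acsl5, Acad9 and Acot9 are below control on every day from 3, Acads returns to the control range on day 5, and Angptl4 and Decr2 lie on opposite sides of control on days 1 and 3.

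Of the 5 receptors and coactivators, none rose in the fit of all arrays (limma, 0 higher on any day), Ppard and Ppargc1b fell on some days, and Ppara, Pparg and Ppargc1a passed on no day. Ppara and Pparg had control means of 4.10 (SD 0.16, n = 3) and 3.80 (SD 0.03, n = 3), below the array medians, and changes between -0.15 and 0.13 with no adjusted p below 0.522. Ppargc1a, the coactivator induced in oxidative tissues, had a control mean of 2.95 (SD 0.20, n = 3) and changes between -0.11 and 0.18. Its second probe set had means between 1.89 and 2.21.

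Ppard, the receptor form found in most tissues, had log2 signals of 7.14, 7.21 and 7.25 in control, 7.35, 7.46 and 7.42 (day 1), and 6.88, 6.74 and 6.88 (day 11). Its day 1 arrays lay above control without passing (0.21, adjusted p = 0.262), and it fell on day 11 by 0.36 (SE 0.11, adjusted p = 0.0111), a call lost without day 11 replicate 2 (0.0629). The day 4 fall of 0.29 (adjusted p = 0.0459) was lost in all 6 fits that left out a control or day 4 array (0.0552 to 0.174).

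Ppargc1b, the related coactivator, fell on day 4 by 0.43 (SE 0.14, adjusted p = 0.0257), day 9 by 0.48 (adjusted p = 0.0125) and day 11 by 0.39 (adjusted p = 0.0433). These calls were lost without control replicate 2 or 3 or day 4 replicate 2 (0.0767 to 0.202), without day 9 replicate 2 (0.0661), and without any control array or day 11 replicate 1 or 3 (0.0575 to 0.189).

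Plin2, the coat protein of lipid droplets and a widely used PPAR target, rose on all 7 days. Its log2 signals were 9.22, 9.27 and 9.41 in control, 10.23, 10.11 and 10.25 (day 1), 10.16, 10.25 and 10.14 (day 3), and 10.05, 9.93 and 9.96 (day 4). They were 10.31, 10.47 and 10.56 (day 5), 10.54, 10.58 and 10.75 (day 7), 10.96, 10.87 and 11.07 (day 9), and 10.98, 10.81 and 10.92 (day 11). All treated arrays exceeded all control arrays, with day 4 the lowest and days 9 and 11 the highest. The rise was 0.90 on day 1 (1.87-fold, SE 0.10, adjusted p = 1.53e-05), 0.68 on day 4 (adjusted p = 1.64e-05), 1.67 on day 9 (3.18-fold, adjusted p = 1.38e-11) and 1.61 on day 11 (3.05-fold, adjusted p = 2.83e-11). With only the 6 arrays of control and day 1, the day 1 adjusted p was 0.101.

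A start region of Plin2 is shown because it holds an inexact match to the receptor motif in a gene that rose on every day. Of the start windows of all genes, 3.86% hold such a match. Capitals mark a pair of AGGTCA copies with 1 base between them, 2 mismatches in all, on the strand opposite to the gene. The letters are the 250 bases before a RefSeq start (build GRCm38.p6). The annotated gene, on the minus strand, begins at 86670217, so part of the window lies inside it.

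Plin2 chr4:86670060-86670309, minus strand: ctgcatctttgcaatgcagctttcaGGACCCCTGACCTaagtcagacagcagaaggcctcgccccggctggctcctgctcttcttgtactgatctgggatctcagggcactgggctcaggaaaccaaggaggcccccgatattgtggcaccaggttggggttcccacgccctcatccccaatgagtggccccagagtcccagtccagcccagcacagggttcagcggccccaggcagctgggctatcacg

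RefSeq start windows of 300 bases, 250 before and 50 after the start, were matched by symbol for 34 of the 41 members, in 36 windows. AGGTCA on either strand was present in 8 of the 36 (22.2%), against 16.3% of 32841 windows of all genes. The members with it were Acadm, Acadvl, Cpt1a, Cpt1c, Echs1, Plin2 and Pparg, the last in 2 windows. The repeat of AGGTCA with a 1-base gap and up to 2 mismatches was present in 4 of the 36 (11.1%), against 3.86% of all windows, in Echs1, Etfa, Plin2 and Slc25a20. In Echs1 and Plin2 a match to the core lies inside the repeat. Of these 4 genes, Plin2 and Slc25a20 rose on all days, Echs1 fell on days 1, 5 and 9, and Etfa passed on no day. The matches describe letters in these windows and show no binding.

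Angptl4, a secreted inhibitor of lipoprotein lipase and a sensitive PPAR target, passed as higher on day 1 and on no other day. Log2 signals were 5.38, 5.15 and 4.91 in control, 6.45, 6.34 and 6.23 (day 1), 4.34, 4.54 and 4.88 (day 3), 4.21, 4.90 and 4.79 (day 4), and 5.38, 5.09 and 5.12 (day 11). Day 1 arrays lay above control, day 3 and day 4 arrays below it, and day 11 arrays overlapped it. The change was 1.19 on day 1 (2.29-fold, SE 0.18, adjusted p = 3.53e-04), -0.56 on day 3 (adjusted p = 0.0245) and -0.51 on day 4 (adjusted p = 0.0382). With only the 6 arrays of control and day 1, the day 1 adjusted p was 0.101. The day 3 call was lost without control replicate 1 or 2 or day 3 replicate 1 or 2 (0.0639 to 0.138), and the day 4 call without control replicate 1 or 2 or day 4 replicate 1 (0.0888 to 0.292).

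Between treated days, which share no control arrays with each other but do share their own arrays with the comparisons above, 26 of the 41 members (63.4%) differed in the F test over the 7 days, against 44.8% of all genes. Members were brighter than most genes, and shares among the brighter genes were not computed for comparisons between treated days. From day 1 to day 3, 5 members rose (12.2%, against 13.6% of all genes) and 7 fell (17.1%, against 13.7%), shares near the background. The largest rises were those of Acot2 (1.81, SE 0.19, adjusted p = 1.2e-07) and Decr2 (1.01, adjusted p = 5.95e-07), with Decr1 at 0.78 (adjusted p = 7.26e-06), and the largest fall was that of Angptl4 (1.75, adjusted p = 9.13e-08). With the 3 arrays of highest median omitted (day 1 replicate 1 and day 9 replicates 2 and 3), 7 rose and 12 fell.

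From day 4 to day 5, 6 members rose (14.6%, against 9.06%) and 1 fell (2.4%, against 3.29%). Plin2 rose by 0.47 (SE 0.10, adjusted p = 0.00458), and Cpt1c, Acads, Hadh, Acaa1a and Ppargc1b rose by 0.39 to 0.51. Plin2 kept its call in each fit without 1 of the 6 arrays. The other 5 rises were each lost without 2 to 5 of them (adjusted p from 0.0514 to 0.148), each of the 6 arrays ending at least 1 call, and the total of 7 went to 3 without day 4 replicate 2 or 3 and to 4 without day 5 replicate 2 or 3. Cyclic loess gave 4 higher and 2 lower, and median centring 3 and 1.

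From day 3 to day 11, 7 members rose (17.1%, against 8.33%) and 2 fell (4.9%, against 5.32%). Acot2 rose by 1.48 (SE 0.19, adjusted p = 1.14e-05), Pex11a by 0.72 (adjusted p = 0.00348) and Plin2 by 0.72 (adjusted p = 4.44e-05), and Slc25a20, Acadvl, Etfdh and Angptl4 rose by 0.38 to 0.61. Acads and Decr2 fell by 0.54 and 0.44. The call of Acadvl was lost without day 3 replicate 2 (adjusted p = 0.0591) and that of Decr2 without day 3 replicate 2 or day 11 replicate 3 (0.0621 to 0.0844). That of Slc25a20 was lost without day 3 replicate 1 or 3 or day 11 replicate 2 or 3 (0.0547 to 0.0741), that of Etfdh without day 3 replicate 2 or 3 or day 11 replicate 2 or 3 (0.0661 to 0.0859), and that of Angptl4 without any of 5 arrays, all but day 3 replicate 3 (0.05 to 0.138). The total of 9 went to 5 without day 3 replicate 2 or day 11 replicate 3. Cyclic loess gave 5 higher and 5 lower, and median centring 9 and 1.

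Genes of the same pathways outside the list were read from 6 further lists of 116 genes, 103 of them measured. Of 34 further fatty acid oxidation genes, 0 rose and 1 fell on day 1 by limma (12 at an unadjusted p below 0.05), and on both day 3 and day 11, 9 rose (26.5%, against 12.4% and 14.0% of all genes) and 4 fell (11.8%, against 13.9% and 11.8%, so near the background). Of these 34 genes, 10 had a mean below every array median. Among the brighter genes defined above, 20.3% rose and 25.8% fell on day 3, and 25.6% rose and 20.6% fell on day 11. The genes named here were chosen after their values were seen. Acox2, the peroxisomal oxidase for branched chains and bile acid precursors, had means of 4.90 (SD 0.37, n = 3) in control and 7.67 (SD 0.21, n = 3) on day 11 and rose by 2.76 (SE 0.18, adjusted p = 1.88e-11). Acad11 rose by 1.26 (SE 0.15, adjusted p = 4.23e-07) and Slc22a5, the carnitine importer, by 0.97 (adjusted p = 1.52e-05). Acadsb rose by 1.294 (SE 0.35, adjusted p = 0.00658). Acaca, an acetyl-CoA carboxylase gene, fell by 0.60 (SE 0.17, adjusted p = 0.00826). The day 11 changes of Acot7 (-0.735, adjusted p = 3.36e-05) and Hsd17b10 (-0.637, adjusted p = 1.92e-04) were larger falls. Acacb, also an acetyl-CoA carboxylase gene, went the other way from Acaca on day 3. It rose by 0.635 (SE 0.119, adjusted p = 2.17e-04) and did not pass on day 11.

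Most of the further PPAR-responsive genes had low signals, where a change may not be detectable: 17 of 21 had a mean below every array median, against 4 of the 41 members. Limma called 0 on days 1, 5, 7 and 11 (4, 4, 3 and 1 at an unadjusted p below 0.05). The calls were Cat on day 3 (higher by 0.46, adjusted p = 0.0341), Gpd1 and Gpihbp1 on day 4 (lower by 0.60 and 0.61, adjusted p = 0.00644 and 0.00433), and Gpd1 and Cidea on day 9 (lower by 0.48 and 0.47, adjusted p = 0.031 and 0.0348). Pdk4, a kinase that spares glucose and is a standard PPAR target, had a mean of 3.10 (SD 0.08, n = 3) in control and 3.06 (SD 0.08, n = 3) on day 11, and Cd36 2.14 (SD 0.11, n = 3) and 2.19 (SD 0.07, n = 3). Both lay below the array medians. The list's median change on day 11 was -0.11, beside -0.03 for all genes.

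Of 19 partners of the PPARs and PGC-1, 3 had a mean below every array median. Among the brighter genes defined above, 25.6% rose and 20.6% fell on day 11, and 20.3% rose and 25.8% fell on day 3. Of the 19, 5 rose (26.3%, against 14.0% of all genes, so near the share of the brighter genes) and 1 fell (5.3%, against 11.8%) on day 11. On day 3, 5 rose (26.3%, against 12.4%) and 2 fell (10.5%, against 13.9%), and on day 1, 2 rose (10.5%, against 2.30%). Ncoa1, a coactivator of nuclear receptors, rose by 1.30 on day 11 (SE 0.15, adjusted p = 3.39e-07), and the acetyltransferase genes Crebbp and Ep300 by 0.82 (adjusted p = 1.08e-06) and 0.70 (adjusted p = 8.42e-06). Esrra, which drives oxidative genes with PGC-1, fell by 0.41 (SE 0.13, adjusted p = 0.0225).

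Of 12 lipid droplet and lipolysis genes, 2 rose and 2 fell on day 11 (16.7% each, against 14.0% and 11.8% of all genes, so near the background). Lipa, the lysosomal acid lipase, rose by 1.20 (SE 0.20, adjusted p = 4.6e-05) and Pnpla2, the first triglyceride lipase, by 0.37 (adjusted p = 0.0419), while Dgat2, which makes triglyceride, fell by 0.65 (SE 0.16, adjusted p = 0.00229) and Abhd5 by 0.49 (adjusted p = 0.00214). Of 5 ketone body genes, 1 rose (background 14.0%) and 3 fell (background 11.8%): Aacs by 1.66 (SE 0.16, adjusted p = 2.11e-08), Oxct1, which starts ketone body use, by 0.86 (SE 0.12, adjusted p = 3.01e-06) and Acat1 by 0.68 (adjusted p = 4.55e-05). Of 12 peroxisome assembly genes, 2 rose (Pex3 and Pex13) and 0 fell on day 11 by limma (4 at an unadjusted p below 0.05 in either direction), against 2 higher and 4 lower on day 3. The 2 that rose are 16.7% of the list, against 14.0% of all genes and 25.6% of the brighter genes on day 11. The 4 that fell on day 3 are 33.3%, against 13.9% of all genes and 25.8% of the brighter genes. Of these 12 genes, 0 had a mean below every array median, so the shares of the brighter genes are the closer background.

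**Figure D5:**
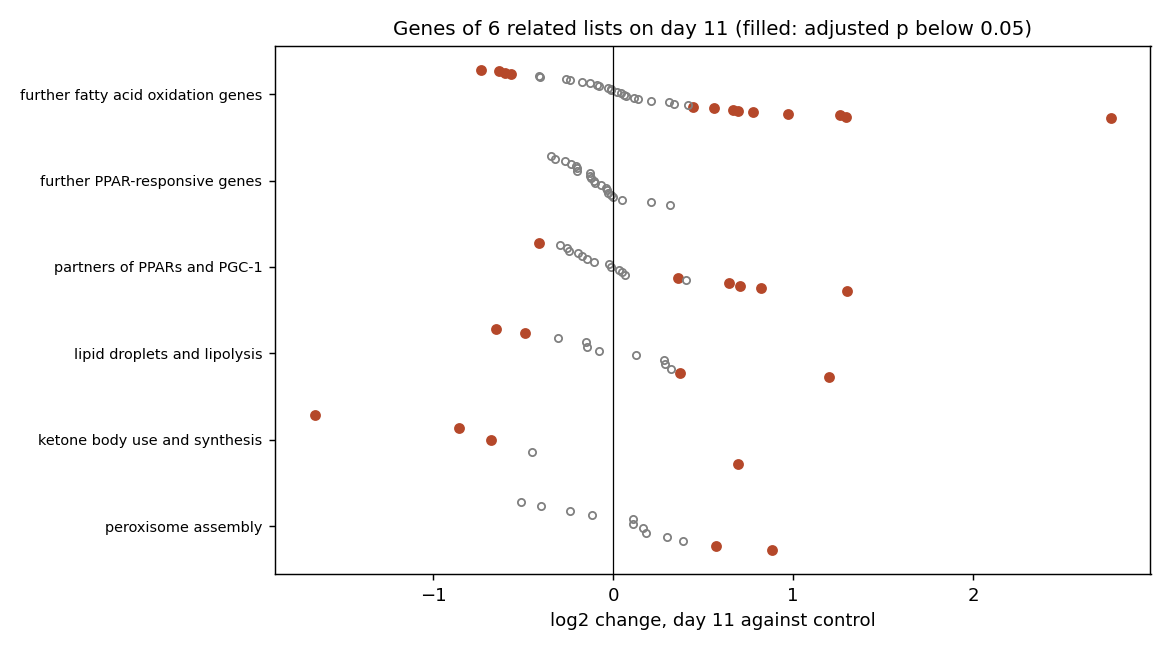
Log2 change from control to day 11 of the genes of 6 related lists (1 point a gene; rows are lists, vertical offsets only separate points); filled points have an adjusted p below 0.05. Acox2 lies farthest to the right at 2.76, Aacs farthest to the left at -1.66, and the row of further PPAR-responsive genes holds no filled point.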

How the data were processed

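Per the labels' protocols, biotinylated cRNA of 4T1 cells was read on 24 single-channel Affymetrix arrays. The submitters' processing notes name RMA and Affymetrix Expression Console 1.1 for the log2 signals that the authors deposited. That the base is 2 was inferred from their range (0.96 to 14.71), and how RMA was set is not given in the sources used here. RMA scales arrays to a common distribution, so changes are relative to the other genes. Of 35557 probe sets, 21789 carried 1 gene symbol in the annotation, 1621 several and 12147 none. The probe set with the highest mean stood for its gene, which left 19938 genes. Group means of all 24 arrays, grouped by title, were fitted in R 4.3.3 by limma 3.58.1 (lmFit, eBayes), leaving 16 residual degrees of freedom. P-values were adjusted by Benjamini-Hochberg over all genes, with a threshold of 0.05. Changes carry SE, means SD.

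Members and lists were chosen with earlier results of these data known. Full values are given by rule for members past the threshold with a change of at least 1 log2 unit on a day, and for others that the patterns turn on, chosen after their values were seen. Arrays of equal replicate number in different groups were no more alike than others (median correlation of deviations -0.001 over 84 pairs, from -0.288 to 0.328) and were not paired. On simulated day 11 data over 19938 genes, limma recovered 29.9% of changes of 0.5, 95.5% of 1 and 100% of 2 log2 units, with 7 false calls. Far fewer genes changed in this simulation than were called on the real day 11, and its noise was independent and normal. The rates therefore do not measure recovery in the real arrays. Promoter windows came from RefSeq (GRCm38.p6). Alternatives were other probe set summaries, filters, scalings, variances, a replicate block, fewer arrays and stricter thresholds. Omissions of day 1 replicate 1, alone or with day 9 replicates 2 and 3, from every fit, and the shares among brighter genes, were added after the data were seen. Plots used Python 3.11.15 and matplotlib 3.10.9.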

Additional observations from a re-analysis of the deposited data

Results flagged for a closer look

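For 2 members the change from control passed the threshold in opposite directions on different days. The days compared here were picked for those opposite calls, so the differences describe what selected them and are given with no test. The change of Decr2 on day 5 minus that on day 1 was 1.193 on the log2 scale, from changes of 0.775 and -0.418. For Angptl4, the change on day 1 minus that on day 3 was 1.753, from changes of 1.194 and -0.559. Both use day 1, whose replicate 1 stood apart. Without that array the differences were 1.302 for Decr2 and 1.698 for Angptl4. With 3 arrays a group, single members were not searched for outlying values.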

How the results depend on the processing

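Counts are members past the threshold out of 41. On day 1 the 11 became 0 in a fit of the 6 arrays compared (limma; 15 had an unadjusted p below 0.05), 6 at an adjusted p below 0.01 and 2 with a 2-fold minimum, and 6 to 16 when an array was left out (6 without control replicate 2). The 2-fold minimum left 3 of 24 on day 3, 3 of 25 on day 4, 6 of 21 on day 5, 10 of 22 on day 7, 7 of 22 on day 9 and 5 of 23 on day 11. From day 1 to day 3 the 12 became 19 without the 3 arrays of highest median, 6 with only the arrays compared and 3 with a 2-fold minimum. From day 4 to day 5 the 7 became 4 with arrays centred on their medians, 11 without those 3 arrays, 2 at an adjusted p below 0.01, 0 with a 2-fold minimum (12 at an unadjusted p below 0.05 in limma with no minimum), and 3 to 10 with an array left out. From day 3 to day 11 the 9 became 15 without the 3 arrays, 4 at an adjusted p below 0.01, 1 with a 2-fold minimum, and 5 to 11 with an array left out (8 without day 11 replicate 1). The replicate block gave 10, 24, 24, 23, 21, 23 and 22 members on days 1 to 11. Single-member changes from control were followed only for members past the threshold with a change of at least 1 log2 unit on a day. Among these, no called change took the opposite sign under an alternative. Of their values under alternatives, 1327 kept their side of the threshold, 7 came to pass it and 31 ceased to. Members picked for large changes keep their calls more easily, and the other members were not in this tally. Stricter thresholds lower counts by construction; the causes of the other shifts, up or down, were not tested. With 3 arrays a group, small changes can be missed, so a member that did not pass is not shown to be unchanged. Members below the array medians have no detection call here.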
